A study of Mus musculus with 800 samples.

Results

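Among labelled retinal cells of the mouse embryo, those with at least 20 counts of the receptor gene Ephb1 (Ephb1-high) were set beside those with 0 counts of it (Ephb1-absent). The Ephb1-high side held 98 cells with 20 to 99 counts and 41 cells with 100 or more, 34.8% of the 400 Tomato+ cells, and the Ephb1-absent side held 98 cells, or 24.5%. Together they made up 59.2% of the Tomato+ cells, and the study had 800 cells in all. Another 83 Tomato+ cells with 1 to 19 Ephb1 counts lay between the sides and were left out, as were 7 cells with 100 or more counts of the globin gene Hbb-y and 73 cells that failed the filters (under 1000 genes, or over 20% of counts in mitochondrially encoded genes). The rule used the Ephb1 counts of the same cells, so every difference given here describes cells chosen on Ephb1, and none was tested. The 5 cells just inside the limit held 20, 20, 20, 20 and 21 counts, and the 5 just outside held 19 each.

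All cells came from C57BL/6 mice of the Sert-Cre line at stage E15.5, in which Cre recombinase is made under the control of Slc6a4, the serotonin transporter gene. Per the labels, 30 retinas were pooled, dissociated with papain and sorted for the fluorescent label. The sort gate and the animal of each cell are not given in the sources used here. Libraries were made with SmartSeq2, which reads whole transcripts, and the series title names the C1 microfluidic system. Both sides therefore share the genotype, the stage, the pool and the Tomato+ label. Tomato- cells of the same retinas, in which the label was not seen, serve for a side-by-side look at the end.

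Ephb1 encodes a receptor tyrosine kinase that binds ephrin-B ligands on neighbouring cells. In the mouse, retinal ganglion cells (RGCs) of the ventrotemporal retina carry it, meet ephrin-B2 at the midline of the optic chiasm, and turn back to the same side of the brain (the ipsilateral projection). The zinc finger factor Zic2 is known to switch on Ephb1 and Slc6a4 in these cells, while most other RGCs cross to the opposite side (the contralateral projection).

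The sides were brought to 1 depth by thinning, which left out cells of fewer than 100000 counts. A larger part of the 98 Ephb1-absent than of the Ephb1-high cells was lost in this way. At least 100000 counts were held by 96 Ephb1-high cells of the lower range, by all 41 of the upper range and by 87 Ephb1-absent cells, and each of these was thinned at random to 100000 counts so that every cell had the same weight. Before thinning, the median total was 267412 counts (102184 to 644293) in Ephb1-high and 290580 (111988 to 480850) in Ephb1-absent cells, with medians of 4584 and 4571 genes. The median share of mitochondrial counts was 5.80% against 5.24%. Ephb1 itself had a median of 62 counts in Ephb1-high cells. In an Ephb1-absent cell of median total, 3 counts, the limit that a count of 0 allows, correspond to 10.3 CPM (counts for each 1000000 counts of the total).

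**Figure D1:**
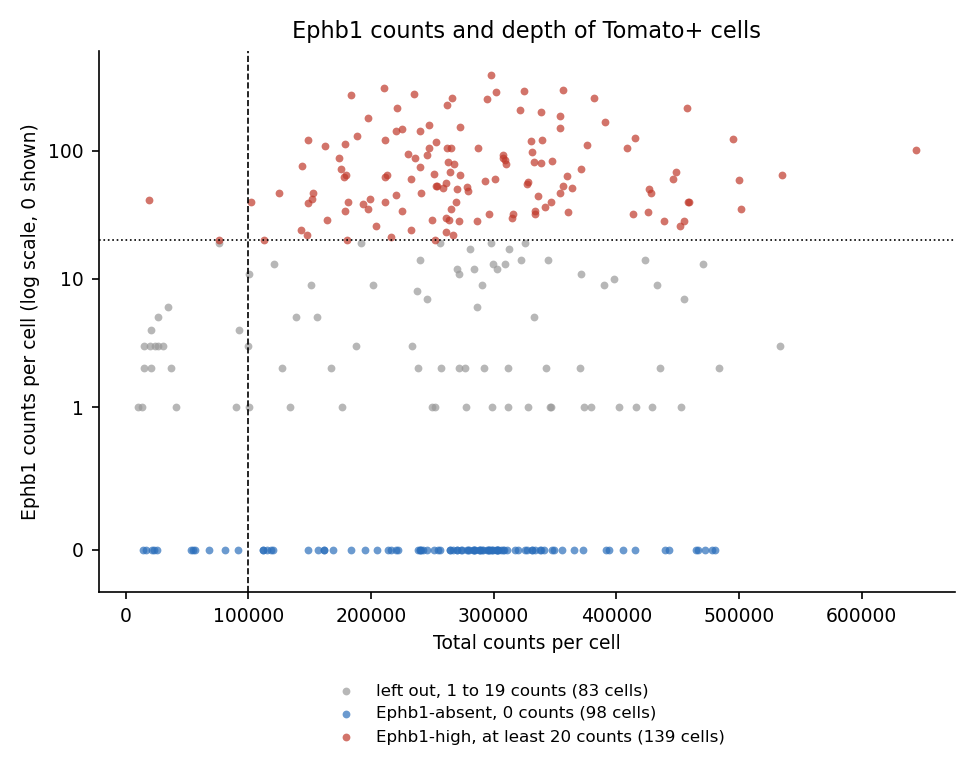
Ephb1 counts per cell (log axis, with 0 drawn at the foot) against total counts per cell, for the kept Tomato+ cells below the Hbb-y limit. Each dot is 1 cell, the dotted line is the limit of 20 counts and the dashed line the 100000 counts needed for thinning. The 98 Ephb1-absent cells cover much the same depths as the Ephb1-high cells.

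Both sides were RGCs by their markers. At least 4 of 12 RGC markers, and a larger share of them than of any other retinal class, were found in all but 1 of the Ephb1-high and in 83 of 87 Ephb1-absent cells. The median cell of each side carried 10 of the 12 markers. Their summed level was 19883 CPM (18300 to 20994 over title numbers) in Ephb1-high and 20266 CPM (13496 to 25120) in Ephb1-absent cells. Markers of other cells were low but uneven. The 8 progenitor markers summed to 76.4 CPM (10 to 453 over title numbers) against 216.9 CPM (10 to 1958), and the 6 photoreceptor markers to 12.7 CPM (0 to 44) against 58.4 CPM (0 to 1233). The 5 microglia or macrophage markers gave 0.365 against 13.9 CPM. The part of these few cells in the differences was measured by keeping RGC-marked cells alone, and the results it changed are named where they occur.

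The title of each Tomato+ cell holds a number between 1 and 10 (the title number), and each number held cells of both sides, between 8 and 19 Ephb1-high and between 3 and 16 Ephb1-absent. The standard deviation (SD) of a ratio over the title numbers is given as its spread. The title numbers are not known to be separate animals, cultures or runs, so they carry no test. Title number 10 held 3 Ephb1-absent cells and title number 8 held 5, with a median mitochondrial share of 8.98% in the cells of title number 8. Ratios are on a log2 scale, Ephb1-high over Ephb1-absent, after adding 10 CPM to both sides, which understates the change of low genes. Intervals in brackets after a level or a share are exact 95% intervals for counting error only.

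The regulatory DNA just before 4 of the genes that the results turn on is shown first, from the RefSeq promoter table on GRCm38.p6, since Ephb1, Zic5 and Slc6a4 were high in the same cells while Efna5 was low there. Each sequence runs from 5′ to 3′ on the strand of its gene and stops before the annotated gene. Capitals mark CTGCTG, letters that occur within sites bound by Zic factors, searched on both strands as CTGCTG and CAGCAG. The windows are chr9:102354694-102354943 (minus strand) for Ephb1, chr14:122465678-122465908 (minus strand) for Zic5, chr11:76998347-76998596 (plus strand) for Slc6a4 and chr17:62881318-62881567 (minus strand) for Efna5.
Ephb1: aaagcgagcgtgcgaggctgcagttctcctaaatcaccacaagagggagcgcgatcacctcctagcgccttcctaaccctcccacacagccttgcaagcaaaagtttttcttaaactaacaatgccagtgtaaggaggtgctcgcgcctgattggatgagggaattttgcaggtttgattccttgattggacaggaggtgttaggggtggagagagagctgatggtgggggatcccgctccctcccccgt
Zic5: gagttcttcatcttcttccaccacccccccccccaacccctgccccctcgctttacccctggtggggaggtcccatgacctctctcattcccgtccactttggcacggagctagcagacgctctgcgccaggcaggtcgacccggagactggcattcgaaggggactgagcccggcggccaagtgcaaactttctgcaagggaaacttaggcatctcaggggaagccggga
Slc6a4: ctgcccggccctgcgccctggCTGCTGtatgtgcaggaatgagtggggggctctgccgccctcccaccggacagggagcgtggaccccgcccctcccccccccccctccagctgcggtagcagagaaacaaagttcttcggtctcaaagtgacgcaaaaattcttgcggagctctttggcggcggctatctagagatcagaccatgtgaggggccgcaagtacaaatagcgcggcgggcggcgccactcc
Efna5: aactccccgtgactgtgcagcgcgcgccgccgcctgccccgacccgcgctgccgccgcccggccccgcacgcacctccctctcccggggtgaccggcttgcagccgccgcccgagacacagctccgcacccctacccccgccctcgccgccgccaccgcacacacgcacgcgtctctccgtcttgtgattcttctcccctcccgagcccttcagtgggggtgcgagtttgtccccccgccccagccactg
The Slc6a4 window held 1 match and the other windows none. Of all 32851 promoter windows of 250 bases in the table, 25.4% held a match. Among the 15 genes with the highest ratios, 11 had an entry and 4 of these held a match. Of the 15 genes with the lowest ratios, 11 had an entry and none held a match. A ranked gene was counted if any of its windows held a match, while the 25.4% is a share of windows, so the units differ. The windows counted were not cut at the annotated gene, unlike those shown. These are counts of letters only.

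The cells with high Ephb1 carried more transcript of Zic5, of Slc6a4 and the monoamine transporter Slc18a2, of the neuropeptide genes Gal and Tac1, and of the retinoid genes Crabp1 and Rdh10. They carried less of the ephrin Efna5, the calcium-binding protein genes Calb2 and Hpca, and the contralateral factor Isl2. Of these genes, Gal, Crabp1, Calb2 and Isl2 had ratios smaller in size than their SD over title numbers. Of 9035 genes found in at least 10% of the cells, 1.34% were at least 2-fold higher in Ephb1-high cells and 66, or 0.73%, at least 2-fold lower. The median ratio over all 9035 genes was 0.02. Named below are the 15 highest and 15 lowest ratios among genes with a steady direction over title numbers, and members of gene lists. All 15 of the former were past 2-fold and 13 of the latter. Over the title numbers, 12 of the 15 high and 8 of the 15 low genes had a ratio larger than its SD. In 9 of the 30 the direction was the same in all 10 title numbers. In 0 of the 30 were the levels of the sides without overlap. A steady direction over title numbers was part of the rule that picked these 30 genes. Their counts of title numbers, here and below, and of ratios beyond the SD therefore partly describe the pick. They are not separate evidence of a steady difference.

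**Figure D2:**
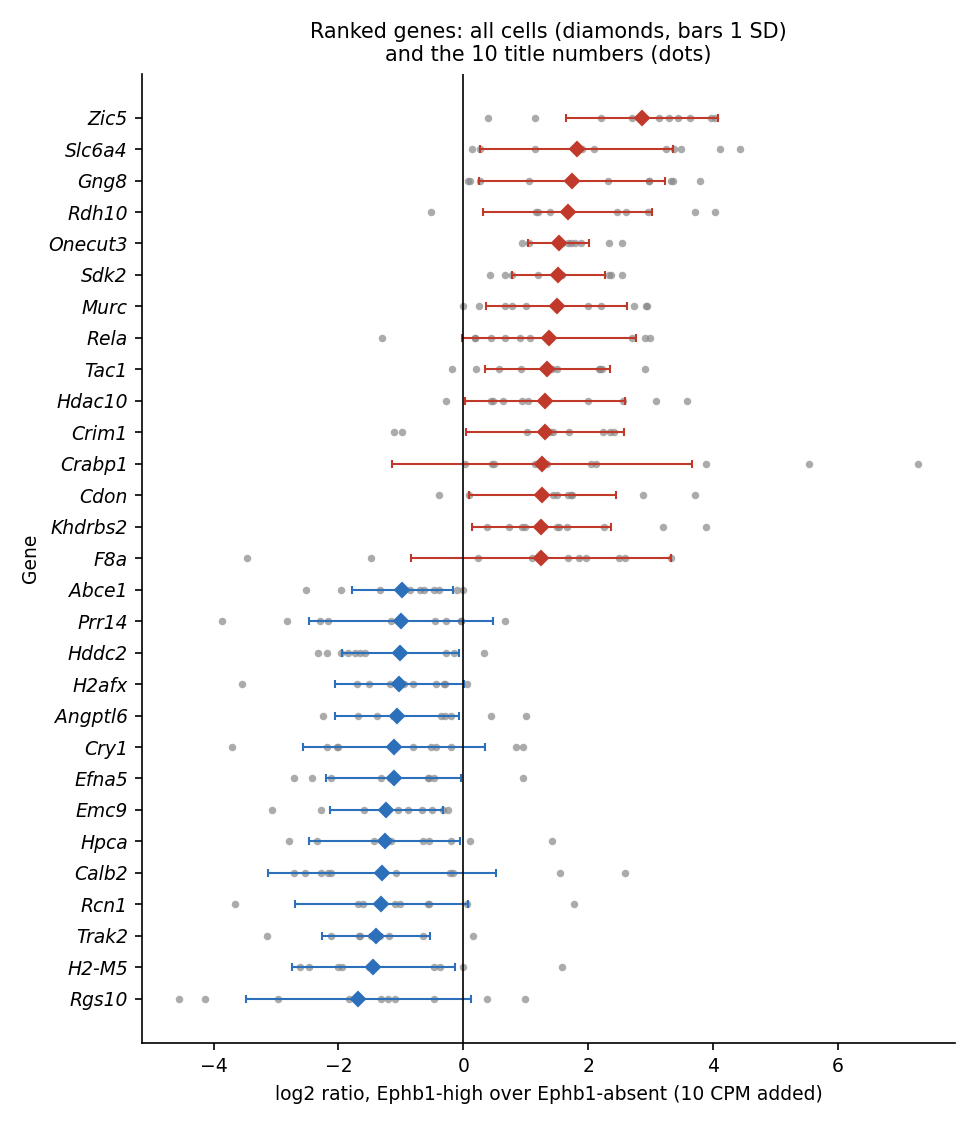
Log2 ratios of Ephb1-high over Ephb1-absent Tomato+ cells (x axis) for the 15 highest and 14 of the 15 lowest genes by the naming rule (y axis). Diamonds are all cells together, bars 1 SD over the title numbers and grey dots the 10 title numbers. Zic5 is highest at 2.86 and Rgs10 lowest at -1.68, and the bar of Crabp1 reaches across 0.

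Zic5, a zinc finger transcription factor, had the highest ratio. Over the title numbers its level in Ephb1-high cells ran from 19.2 CPM through a median of 130.3 to 250, and in Ephb1-absent cells from 0 through 6.78 to 36. Each title number had more Zic5 on its Ephb1-high side, though the ranges of the sides overlapped between title numbers. All cells together gave 135.4 CPM (129.3 to 141.7) against 10 CPM (8.01 to 12.3), 13.5-fold, and a log2 ratio of 2.86 (SD 1.21). After thinning, at least 1 Zic5 count was found in 51.1% (42.4 to 59.7) of Ephb1-high and 19.5% (11.8 to 29.4) of Ephb1-absent cells, and before thinning in 56.1% and 28.6% of the cells of any depth. The gene lies at chr14:122456795-122465677 on the minus strand, 9757 bases from its neighbour Zic2, which is read from the plus strand. Zic5 is not restricted to RGCs in this retina: 46.3% of the Tomato- cells with progenitor markers held a count, at 95.03 CPM.

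The other Zic genes were low. Zic2 had 3.94 CPM (2.96 to 5.14) in Ephb1-high cells and 0.575 CPM (0.187 to 1.34) in Ephb1-absent cells, with a count in 13.9% and 3.45% of cells. It did not pass the filter on low genes, and both levels lay under the 30 CPM that 3 counts make in 1 thinned cell. Of the progenitor-marked Tomato- cells, 6.04% (2.80 to 11.2) held a Zic2 count, so the share in Ephb1-absent cells is at background. The Ephb1-high share of 13.9% (8.56 to 20.8) lay above 6.04%, with overlapping intervals. A Zic2 count was found in 26.8% (14.2 to 42.9) of cells with 100 or more Ephb1 counts and in 8.33% of those with 20 to 99. Before thinning, Zic2 was found in 18.7% of Ephb1-high and 3.06% of Ephb1-absent cells of any depth. Zic1 had 23.1 against 9.89 CPM, a ratio of 0.73 (SD 1.03).

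Slc6a4, which takes serotonin up into the cell and whose promoter drives the label in these mice, came second. Its level over title numbers ran from 45 CPM through 159.1 to 321.2 on the Ephb1-high side and from 0 through 20.4 to 111.2 on the Ephb1-absent side. In each title number the Ephb1-high side was the higher. Together the levels were 157.01 CPM (150.4 to 163.8) and 37.4 CPM (33.4 to 41.6), 4.20-fold, with a ratio of 1.82 (SD 1.54). A count was found in 56.2% (47.5 to 64.7) of Ephb1-high and 33.3% (23.6 to 44.3) of Ephb1-absent cells, beside 2.68% of the progenitor-marked Tomato- cells, whose median total was 243142 counts. Both Tomato+ shares were thus above that background, and Tomato+ cells without Ephb1 included many with the transporter.

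Slc18a2, the vesicular transporter that loads serotonin into vesicles, differed more evenly than any other gene of the serotonin list. Over title numbers it had a median of 415 CPM and reached 681 in Ephb1-high cells, and it had a median of 196.9 CPM and reached 312.9 in Ephb1-absent cells. Every title number on the Ephb1-high side stood above every one on the Ephb1-absent side, so the ranges did not overlap. The totals were 428 CPM (418 to 440) against 205.5 CPM (196.1 to 215.3), a ratio of 1.02 (SD 0.49). The shares of cells with a count, 92.7% and 89.7%, were nearly equal, so the difference lay in the amount per cell. Of the 13 serotonin genes on the list, 3 passed the filter on low genes, namely Slc18a2, the monoamine oxidase gene Maoa (0.50, SD 1.73) and the receptor gene Htr1b (0.36, SD 1.58). The synthesis genes Tph1, Tph2 and Ddc did not pass it.

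Zic5 and Slc6a4 were often found together. Both had a count in 55 Ephb1-high cells, or 40.1% (31.9 to 48.9), and in 8 of 87 Ephb1-absent cells, or 9.20% (4.05 to 17.3). Neither was found in 32.8% and 56.3% of cells. Within the Ephb1-high side, Zic5 was found in 71.4% of the cells with Slc6a4 and in 25% of those without it. Other genes were found more often in the Ephb1-high cells without Zic5: Eomes, a T-box factor gene needed for intrinsically photosensitive RGCs in the mouse, had a count in 56.7% of Ephb1-high cells without Zic5 and in 27.1% of those with it, and the growth factor gene Igf1 in 64.2% and 40.0%. Igf1 and Eomes also went together, with Igf1 in 70.2% of the Ephb1-high cells with Eomes and in 38.8% of those without. These shares describe cells of 1 pool and had no test.

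Known genes of the ipsilateral and contralateral projections did not all follow Ephb1. The ipsilateral list had 6 members, of which Zic5, Slc6a4, Zic1 and Igf1 passed the filter. Their median ratio was 1.28 (SD 1.05 over title numbers), beside 0.02 over all genes, and ran from 0.47 to 1.59 over the ways of processing. This median of 4 genes rests on Zic5 and Slc6a4, the 2 highest-ranked genes of this same comparison. It is not separate evidence about the list. Boc, the hedgehog co-receptor of ipsilateral RGCs, had 0 counts in Ephb1-high and 0.345 CPM in Ephb1-absent cells after thinning. Before thinning, a Boc count was found in 1.44% and 2.04% of the cells of any depth. Igf1, known from ipsilateral RGCs in earlier mouse work, went the other way. Its levels over title numbers were 31.1, 147.2 and 240 CPM (lowest, median and highest) in Ephb1-high and 21.4, 290.9 and 817 CPM in Ephb1-absent cells. The Ephb1-absent side was higher in all but 3 of the title numbers, and the ranges overlapped widely. All cells gave 154.1 CPM (147.6 to 160.8) against 388.6 CPM (375.6 to 402), a ratio of -1.28 that was smaller than its SD of 1.68. At least 2 ipsilateral members had a count in 62.04% of Ephb1-high and 40.2% of Ephb1-absent cells, and at least 3 in 33.6% and 12.6%. Zic5 and Slc6a4 enter these shares, and cells with both made up 40.1% and 9.20%. The summed level of the 6 members was nearly the same, at 473.5 against 446.8 CPM.

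All 6 contralateral members passed the filter, with a median ratio of -0.06. Isl2, a LIM homeodomain factor of crossing RGCs, was the 1 member past 2-fold, on the lower side, beside 0.73% of all genes. It ran from 0 CPM through 1.20 to 36.1 over the title numbers of Ephb1-high cells and from 0 through 27.9 to 125.7 over those of Ephb1-absent cells. The ratio was higher on the Ephb1-high side in 3 title numbers, so the sides were not cleanly apart. Levels were 11.5 CPM (9.80 to 13.5) and 47.9 CPM (43.4 to 52.8), a ratio of -1.43 (SD 1.62), and 5.84% (2.55 to 11.2) of Ephb1-high against 26.4% (17.6 to 37.0) of Ephb1-absent cells held a count. In Ephb1-high cells 5 cells held 96.8% of its counts, and their share was at the 6.71% found in progenitor-marked cells. Pou4f1, a POU-domain factor of most RGCs, had 101.9 against 165.9 CPM (-0.65, SD 1.73). The guidance receptor gene Nrp1, needed for crossing in the mouse, had 274.2 against 190.8 CPM (0.50, SD 1.16). The adhesion gene Nrcam (0.23), the semaphorin receptor gene Plxna1 (-0.06) and the binding protein gene Igfbp5 (-0.05) lay near 0.

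The levels were also set out by the amount of Ephb1, with the cells between the sides included. Tomato+ cells of at least 100000 counts were put in 4 bins by their Ephb1 counts, with 87 cells at 0, 65 at 1 to 19, 96 at 20 to 99 and 41 at 100 or more. Zic5 stood at 10, 31.1, 83.5 and 256.8 CPM over these bins, and the share of cells with a count at 19.5%, 30.8%, 39.6% and 78.05%. Slc6a4 stood at 37.4, 106.8, 105.6 and 277.3 CPM, so that cells with few Ephb1 counts had as much of it as those with 20 to 99. Gal (768, 793, 1353 and 2728 CPM), which encodes the neuropeptide galanin, and Crabp1 (699, 822, 1252 and 2722 CPM) were highest where Ephb1 was highest. Median totals of the bins, from 267126 to 297753 counts, did not climb with Ephb1.

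Genes that were low with Ephb1 took different courses over the bins. Isl2 stepped down from 47.9 through 32.5 and 16.5 to 0 CPM, and the 0 of 41 cells allows a share of up to 7.32% of cells with a count by the limit of 3 cells, and of up to 8.60% by the exact interval. Efna5 dropped at the first step, from 99.5 to 49.2 CPM, and then stood at 45.1 and 30.0. Igf1 (388.6, 476, 202.4 and 40.98 CPM) and Eomes (244.6 CPM, then 304.4 to 332.01 by its interval, 231.7 and 49.3 CPM) were not lower with 1 to 19 counts than with 0, and were low in the cells with 100 or more. Eomes was found in 31.7% (18.1 to 48.1) of those 41 cells and in 45.8% to 53.8% of the cells in the other bins. Of the 15 highest genes, 9 went up at each step, and 14 were higher with 100 or more counts than with 20 to 99. Of the 15 lowest, 11 went down at each step. The genes were picked on the cells of 3 of these bins, the bin of 0 counts among them, so these counts describe the pick and support nothing.

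**Figure D3:**
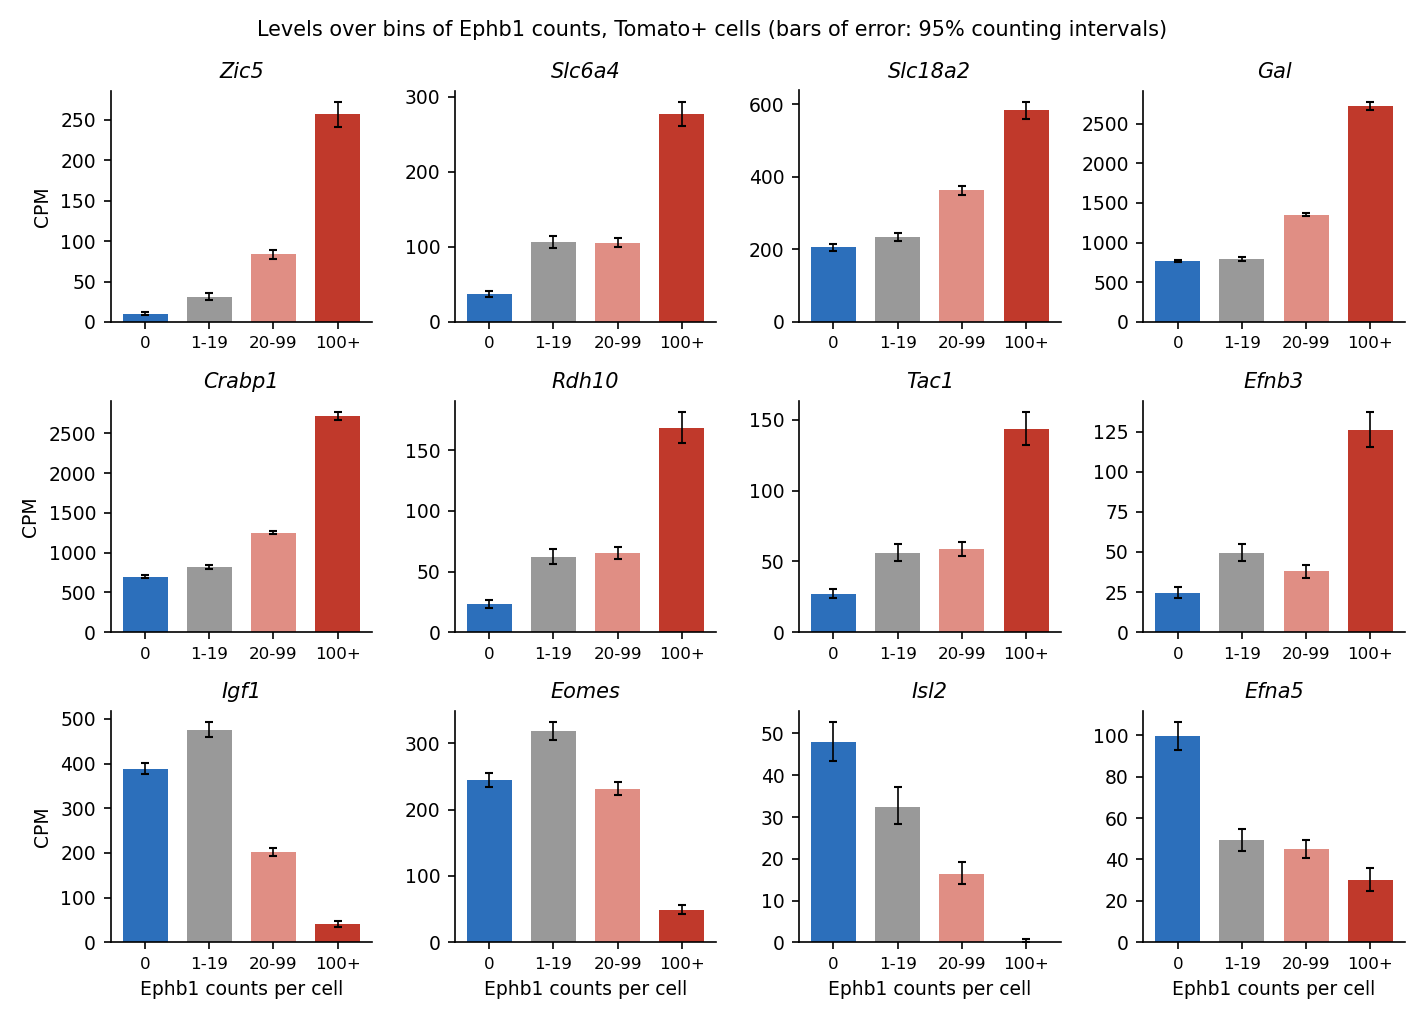
Levels in CPM (y axes from 0) of 12 genes in Tomato+ cells binned by Ephb1 counts per cell (x axis, 87, 65, 96 and 41 cells), with exact 95% counting intervals. The genes were picked after their values were seen. Zic5 and Gal are highest and Isl2 and Igf1 lowest in cells with 100 or more Ephb1 counts.

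Of the transcription factors, Onecut3, a homeodomain factor, had a small spread. It ran from 10.8 CPM through 35.3 to 83.1 over the Ephb1-high title numbers and from 0 through 2.11 to 20 over the Ephb1-absent ones. The Ephb1-high side was higher in all 10. Together the levels were 38.7 CPM (35.5 to 42.1) and 6.90 CPM (5.26 to 8.88), a ratio of 1.53 (SD 0.49), with a count in 25.5% (18.5 to 33.7) against 11.5% (5.65 to 20.1) of cells. As in many low genes, few cells carried the counts, and 5 cells held 41.3% of them on the Ephb1-high and 88.3% on the Ephb1-absent side. Rela, a subunit of the transcription factor NF-kappaB, had a ratio of 1.37 that did not exceed its SD of 1.39. It was 0.47 with cells matched on total counts, and 5 cells held 74.9% of its Ephb1-high counts. Of 40 RGC subtype factors, 27 passed the filter, with a median of 0.22. Onecut3 and the helix-loop-helix factor gene Ebf2 (2.92 against 25.5 CPM, -1.46, SD 1.28) were the only members past 2-fold. Over all genes, 1.34% were past 2-fold higher and 0.73% lower. Pou4f2, the POU-domain factor needed by many RGCs, was at 156.5 against 91.7 CPM (0.71, SD 0.71).

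Of the retinoid genes, Rdh10 and Crabp1 were higher with Ephb1. Rdh10 makes retinal from retinol, the first step to retinoic acid, and was at 96.1 CPM (91.01 to 101.5) against 23.3 CPM (20.2 to 26.8), a ratio of 1.67 (SD 1.36). It was higher in 9 of 10 title numbers, with a median of 108.04 against 17.9 CPM. Crabp1, which binds retinoic acid in the cytoplasm, stood at 1692 CPM (1670 to 1714) against 699 CPM (681 to 716). Its levels over title numbers ran from 785 CPM through 1170 to 5528 in Ephb1-high and from 0 through 534 to 1325 in Ephb1-absent cells. All 10 title numbers were higher on the Ephb1-high side, by very unequal amounts, and the ratio of 1.26 was smaller than its SD of 2.40. Of the 12 genes on the retinoid list, which did not hold Rdh10, 4 passed the filter, and Crabp2 (0.08) and the receptor gene Rara (0.19) lay near 0.

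Among neuropeptide genes, Tac1, the precursor of substance P, and Gal were past 2-fold. Tac1 had 84.2 CPM (79.4 to 89.2) against 27.1 CPM (23.8 to 30.8), a ratio of 1.34 (SD 1.00), higher in 9 of 10 title numbers. Gal ran from 1421 CPM through 1608 to 2429 over the Ephb1-high title numbers and from 101.4 through 395.6 to 2462 over the Ephb1-absent ones. Its level was thus alike in all Ephb1-high title numbers and very unequal among the others. The ratio was 1.19 (SD 1.44), and 5 Ephb1-absent cells held 47.2% of the Gal counts of their side. Gal is not restricted to RGCs here: 61.7% of the progenitor-marked Tomato- cells held a count, at 845 CPM. Of calcium-binding genes, Calb2 (calretinin) had 19.3 against 62.3 CPM, a ratio of -1.30 that was smaller than its SD of 1.83, and Hpca (hippocalcin), which was not on the list, had 5.11 against 26.2 CPM (-1.26, SD 1.21). Calb2 was found in 20.4% (14.03 to 28.2) and 39.1% (28.8 to 50.1) of cells. In all, 6 of 17 genes on the list of neuropeptides and calcium-binding proteins passed the filter, with 2 past 2-fold higher and 1 lower. Over all genes the shares were 1.34% higher and 0.73% lower. Of the 3 list members, Gal and Calb2 had ratios smaller than their SD.

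In the Eph family outside Ephb1, 1 ligand was past 2-fold higher and 1 lower, beside 1.34% and 0.73% of all genes. Of 21 Eph receptor and ephrin genes, 11 passed the filter, with a median of 0.05. Efna5, a ligand of EphA receptors that is linked to the cell surface by a lipid, was lower in Ephb1-high cells in 9 of 10 title numbers. It ran from 0.714 CPM through 42.2 to 75.6 on that side and from 27.1 through 100.2 to 152.7 on the Ephb1-absent side. The levels of all cells were 40.6 CPM (37.3 to 44.1) and 99.5 CPM (93.02 to 106.4), a ratio of -1.11 (SD 1.09), and a count was found in 27.7% (20.4 to 36.03) against 47.1% (36.3 to 58.1) of cells. Efnb3, a transmembrane ligand of EphB receptors, had 64.2 CPM (60.1 to 68.6) against 24.6 CPM (21.4 to 28.1), a ratio of 1.101 (SD 1.498), and was found in 45.3% (36.7 to 53.98) against 18.4% (10.9 to 28.1) of cells. It was higher in 8 of 10 title numbers, and its ratio was smaller than its SD. Efna5 is not restricted to RGCs here: 43.6% of the progenitor-marked Tomato- cells held a count, at 86.6 CPM.

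Of the receptors that passed the filter, none was past 2-fold. Ephb2, another EphB receptor, had 112.4 against 128.3 CPM (-0.18, SD 1.25), and a count in 62.8% against 67.8% of cells. Epha5 had 283.8 against 255.5 CPM (0.15), Epha6 46.6 against 42.99 CPM (0.10) and Epha4 18.2 against 17.2 CPM (0.05). Ephb3 had 15.6 against 25.9 CPM (-0.49), and Efnb2, the ligand known from the chiasm, 26.2 against 23.8 CPM (0.10). Epha3 did not pass the filter and had 1.17 against 12.2 CPM, all in at most 5 cells of each side. Epha8 did not pass it either and had 0.219 against 7.01 CPM (-0.74, SD 0.73), with a count in 0.73% against 9.20% of cells, lower in 7 title numbers and higher in 0. Epha7 (0.34), Efna2 (-0.29) and Efnb1 (-0.41) passed the filter, while Epha10, Ephb6, Efna1, Efna3 and Efna4 did not, with at most 18.6 CPM on either side. Epha1, Epha2 and Ephb4 had 0 counts on both sides, under the 3 counts that a 0 allows. Of 22 genes for partners of Eph signalling, 20 passed the filter, with a median of 0.17. At least 2-fold higher were 2 of them, beside 1.34% of all genes. These were the adaptor gene Grb10 (165.5 against 77.1 CPM, 1.01, SD 1.16) and the phosphatase gene Ptpn13 (12.8 against 0.805 CPM, 1.08, SD 0.64). Both stood higher in progenitor-marked Tomato- cells than on either side. There Grb10 had 844 CPM and a count in 97.3% of cells, and Ptpn13 had 32.95 CPM and a count in 16.8%.

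**Figure D4:**
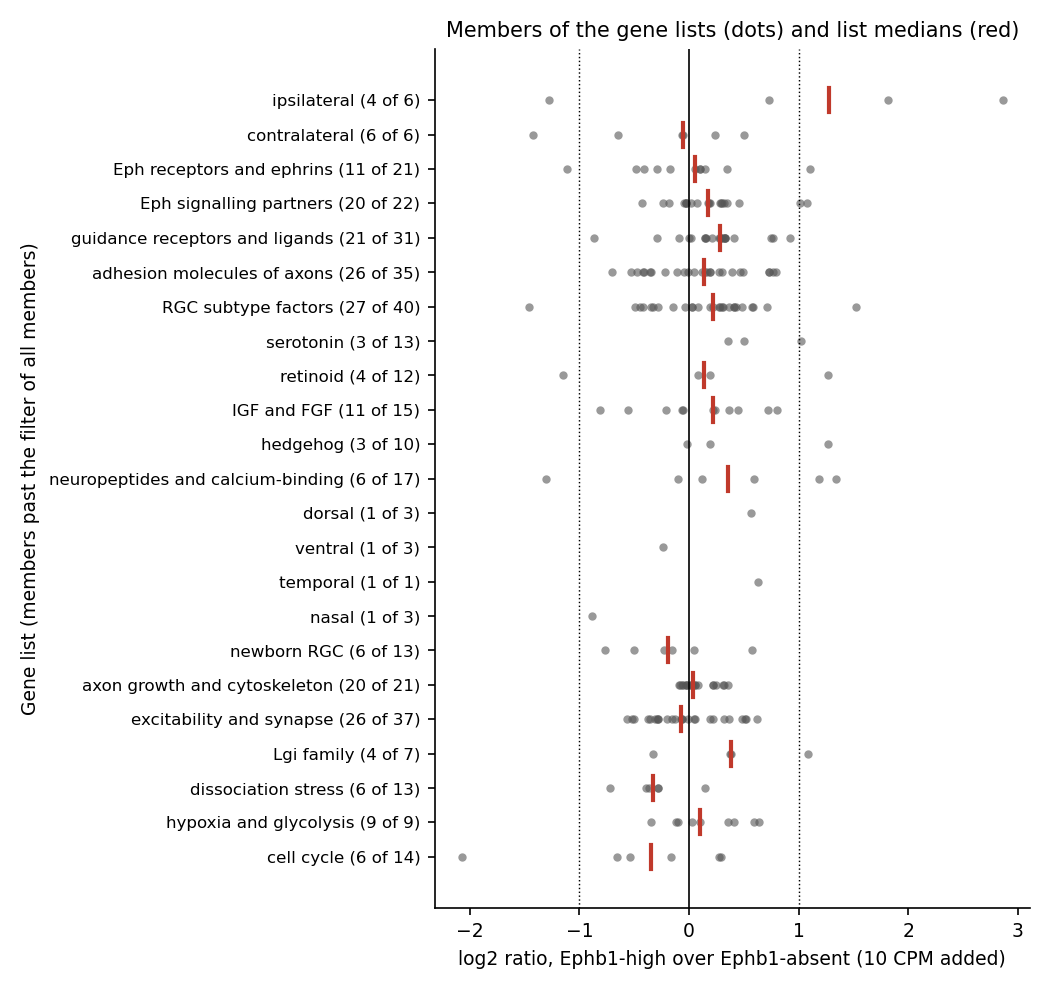
Log2 ratios of Ephb1-high over Ephb1-absent Tomato+ cells (x axis) for the members of each gene list that passed the filter on low genes (grey dots, numbers beside the list names on the y axis) and their median (red). Dotted lines mark 2-fold. The ipsilateral members spread from -1.28 to 2.86, while all axon growth and cytoskeleton genes lie between -0.10 and 0.35.

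Among the 15 highest were also Sdk2, Cdon, Crim1 and Gng8. Sdk2, a homophilic adhesion molecule that guides synaptic layering in the mouse retina, had 44.8 against 9.08 CPM (1.52, SD 0.74) and was higher in all 10 title numbers. Cdon, a co-receptor for hedgehog proteins related to Boc, had 50.7 against 15.3 CPM (1.26, SD 1.18). Crim1, a membrane protein that binds BMP ligands, had 45.8 against 12.5 CPM (1.31, SD 1.26). Gng8, a gamma subunit of G proteins, had 80.1 against 17.01 CPM, a ratio of 1.74 (SD 1.49), in 27.01% against 13.8% of cells, while Rgs10, which shortens G protein signals, had 20.4 against 87.4 CPM, the lowest ratio of all named by rank at -1.68 (SD 1.81). Of 31 other guidance receptors and ligands, 21 passed the filter and 17 of these had a ratio above 0, beside 4686 of all 9035 genes. Their median of 0.28 was smaller than its SD of 0.31 over title numbers, and 0 were past 2-fold. Slit1, a repellent ligand, came nearest (0.92, SD 0.92). Adhesion molecules of axons had 26 of 35 members past the filter, a median of 0.13 and 0 past 2-fold. Adam23, a receptor for Lgi proteins, had 47.3 against 17.01 CPM (1.08, SD 1.39), and the other Lgi family members that passed, Lgi2, Adam22 and Adam11, lay between -0.32 and 0.38.

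The rest of the 30 ranked genes were a mixed set. Khdrbs2, an RNA-binding splicing regulator, had 164.5 against 63.2 CPM (1.25, SD 1.11), higher in all 10 title numbers and found in 70.1% against 50.6% of cells. Hdac10, a deacetylase, had a ratio of 1.31, F8a, which binds huntingtin, 1.25, and Murc, a caveolar protein now named Cavin4, 1.49. On the low side, Trak2, an adaptor for mitochondrial transport along axons, had 18.2 against 64.5 CPM (-1.40, SD 0.86) and was lower in 9 of 10 title numbers. Emc9, of the membrane protein insertion complex of the endoplasmic reticulum, had 32.6 against 90.2 CPM (-1.23, SD 0.91), and Abce1, a ribosome recycling factor, 54.5 against 116.7 CPM (-0.97, SD 0.81). In 0 of 10 title numbers was either higher with Ephb1. The low side also held Rcn1 (-1.31), a calcium-binding protein of the endoplasmic reticulum, the clock gene Cry1 (-1.11), Angptl6 (-1.06), Hddc2 (-1.01), Prr14 (-0.99) and the histone gene H2afx (-1.03). H2-M5 (-1.44) belongs to the MHC class I family, whose members are alike in sequence, so its reads may have been shared among copies.

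The medians of axon growth, synapse and glycolysis genes lay near the 0.02 of all genes. Those of the IGF and FGF, stress and cell cycle lists lay further off. Of 21 axon growth and cytoskeleton genes, 20 passed the filter, with a median of 0.03 and 0 past 2-fold. The neurofilament gene Nefm stood highest of them at 3028 against 2366 CPM (0.35, SD 0.41). Genes of excitability and synapse had a median of -0.07 over 26 of 37 members, with Syt1, the calcium sensor of vesicle release, at 503 against 749 CPM (-0.56, SD 0.61). IGF and FGF genes had a median of 0.22 over 11 of 15. There Igfbpl1 had 328.2 against 183.6 CPM (0.80, SD 0.49), higher in all 10 title numbers. Glycolysis genes had a median of 0.10 over 9 of 9, and immediate early genes of dissociation stress -0.33 over 6 of 13. Cell cycle genes had a median of -0.35 over 6 of 14, which rested on few cells: Mki67, a marker of dividing cells, had 11.5 against 80.2 CPM, and 5 cells held 99.3% of its Ephb1-absent counts. In RGC-marked cells alone its ratio was 0.04 in place of -2.07. Position in the retina was poorly covered. Vax2, a ventral factor, had 198.4 against 235.9 CPM (-0.24, SD 0.58), the temporal factor gene Foxd1 9.93 against 2.87 CPM (0.63, SD 0.98) and the nasal factor gene Hmx1 25.04 against 54.8 CPM (-0.89, SD 1.96).

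The same split was looked at in Tomato- cells, which the rule did not use. Of the 22 Tomato- cells with at least 20 Ephb1 counts, 16 carried RGC markers and 15 of these had at least 100000 counts, in 8 title numbers. They were set beside 100 RGC-marked Tomato- cells with 0 counts, with median totals of 300469 and 311838. With so few cells, 8.84% of 8649 genes were at least 2-fold higher and 16.1% at least 2-fold lower. Of the 15 genes highest in Tomato+, 9 were higher here as well, beside 43.5% of all genes, and of the 15 lowest 6 were lower, beside 56.4% of all genes.

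Zic5 was not higher with Ephb1 in the Tomato- cells, and Slc6a4 could not be judged there. Slc6a4 drives the label in these mice, and the cells without the label held few Slc6a4 counts to compare. Whether the sort accounts for this was not tested. Zic5 had 1.33 CPM (0.161 to 4.82) in the 15 Ephb1-high and 29.4 CPM (26.1 to 32.96) in the 100 Ephb1-absent cells. A Zic5 count was found in 13.3% against 22% of them. The 100 cells also had more of 2 cell cycle genes. Mki67 had 52.7 against 214.9 CPM, in 73.3% against 59% of cells, and Top2a 22 against 208.6 CPM, in 53.3% against 62%. Progenitor-marked Tomato- cells had 95.03 CPM of Zic5. Whether dividing cells account for the Zic5 difference was not tested. Slc6a4 did not pass the filter on low genes here. It had 0 counts in the 15 cells, which allows up to 2.46 CPM. In the 100 cells it had 1.40 CPM (0.765 to 2.35), held by 5 of them, beside 0.537 CPM in the progenitor-marked cells. Isl2 was low with Ephb1 here too, at 0.667 against 43.5 CPM. Igf1, in contrast, stood at 442 CPM (409 to 477) against 49.3 CPM (45.04 to 53.9), in 53.3% against 25% of cells. Onecut3 (101.3 against 23.8 CPM), Sdk2 (42 against 13 CPM), Rdh10 (86.7 against 47.4 CPM) and Crabp1 (410 against 242.4 CPM) kept the direction they had in Tomato+ cells. Few cells carried these levels: 2 of the 15 held 98.7% of the Onecut3, 76.2% of the Sdk2, 60% of the Rdh10 and 56.1% of the Crabp1 counts. The difference between the labels was not tested.

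**Figure D5:**
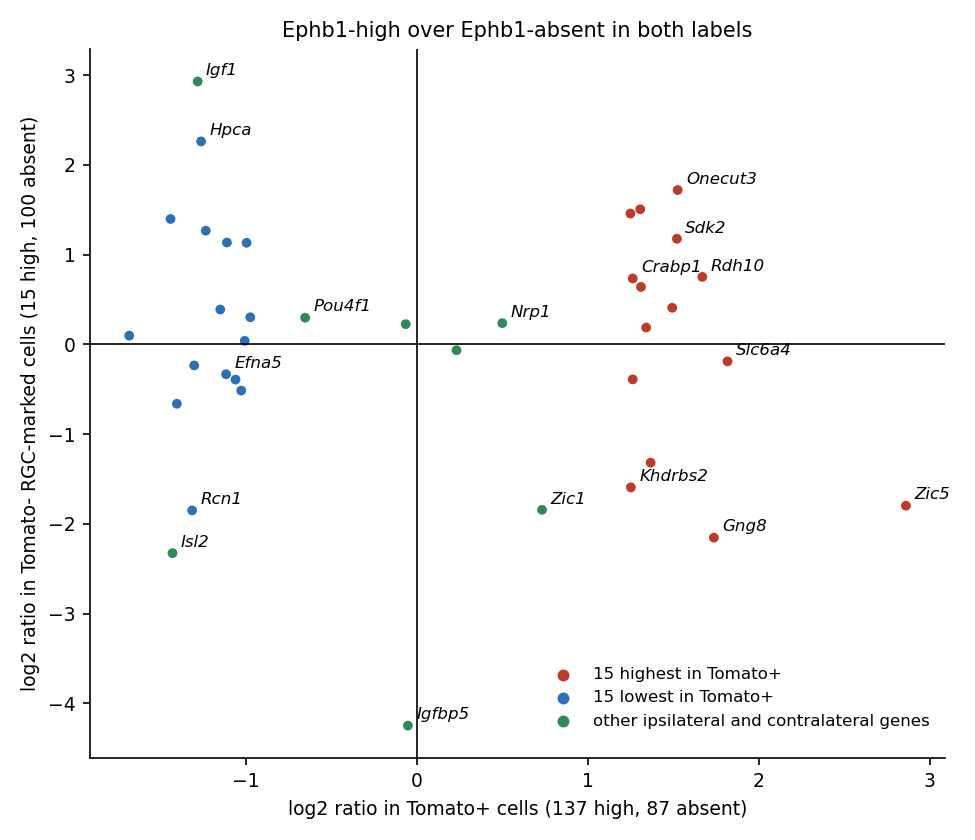
Log2 ratios of Ephb1-high over Ephb1-absent cells in Tomato+ (x axis) and in RGC-marked Tomato- cells (y axis, 15 and 100 cells). Each dot is 1 gene: red the 15 highest and blue the 15 lowest in Tomato+, green other ipsilateral and contralateral genes. Onecut3 and Sdk2 are positive in both labels and Isl2 negative in both, while Zic5 and Igf1 have opposite signs.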

How the data were processed

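The deposited table holds whole-number counts per gene and cell, not normalized, with column names that end in umi per the file headers. Whether they are molecules or reads is not given in the sources used here, nor are the aligner and counter. Per the submitters' processing notes, the mm10 build was used with R 3.4.4 and Seurat 2.3. Of 801 columns, 800 matched a labelled cell and 1 was not used, and the 93 repeated gene rows were never named. Totals per cell were 102184 to 644293 counts in the cells compared, so 3 counts make at most 30 CPM.

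Cells were filtered and split as the report states, thinned to 100000 counts with a fixed seed and summed per side in Python 3.11.15 with numpy 2.4.6, pandas 2.3.3 and scipy 1.17.1. Sums are given as CPM with exact Poisson intervals and shares of cells with exact Clopper-Pearson intervals. Tomato+ is 1 pool without an animal per cell, so no p-value or standard error was made. No doublet caller was run. The sides held 139 and 98 cells, 237 in all, of which 137 and 87, or 224, had enough counts for thinning, and the progenitor-marked Tomato- cells numbered 149. Past 2-fold, 121 of 9035 genes were higher and 66 lower. The code was tested on simulated data. The 30 ranked genes have the largest ratios among genes past the filter whose share of cells with a count moved the same way by 10 or more percentage points, with the same sign in at least 80% of the title numbers, leaving out Ephb1, predicted, mitochondrial, ribosomal, globin, Xist and Y-linked genes. The values of 1 of these 30 are not reported here. The rule also covers all ipsilateral, contralateral and Eph family genes and the largest ratios of other lists, some of which are given as counts only. Named besides are a few further list members picked after their values were seen, among them Eomes and the genes at 0. The cells, lists and tests were chosen with earlier results of these data known. Alternatives changed the depth handling (no thinning, or cells matched on totals), the Ephb1 limits, the cell filters, the pseudocount, the filter on low genes, and the scaling (TMM of edgeR 4.0.16 and median of ratios of DESeq2 1.42.0, in R 4.3.3). Others kept RGC-marked cells only, weighted title numbers equally, and left out each title number. Gene positions are from GENCODE on GRCm38 and promoter sequences from RefSeq.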

Additional observations from a re-analysis of the deposited data

Results flagged for a closer look

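H2afx, a histone variant gene, had a log2 ratio of -3.54 in title number 8, far from the nearest other title number at -1.70. It was the 1 gene of 30 ranked genes with such a gap, and chance flags about 1 in 20.

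Of 80 named genes that could be compared, 8 were at least 2-fold in opposite directions in the Tomato+ and the RGC-marked Tomato- cells. The difference was not tested, and the Tomato- side rests on 15 Ephb1-high cells. The Tomato- Ephb1-absent cells also had more Mki67 and Top2a transcript than these. The ratio in Tomato- cells was -1.80 for Zic5 and -1.32 for Rela, with all Ephb1-high counts in 2 cells, against 2.86 and 1.37 in Tomato+. It was -1.59 for Khdrbs2 and -1.39 for Grb10 (1.25 and 1.01 in Tomato+). It was 1.40 for H2-M5, 2.26 for Hpca and 1.27 for Emc9 (-1.44, -1.26 and -1.23 in Tomato+). For Igf1 it was 2.93 in Tomato- and -1.28 in Tomato+ cells, and 2 of the 8 Tomato- Ephb1-high cells with a count held 52.3% of its counts.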

How the results depend on the processing

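No paired analysis was possible because no result comes from a test, and title numbers are not known to pair cells. All 30 ranked genes kept their sign under all 23 alternatives. Of the 28 past 2-fold, Hddc2 was past it in 9 of them, H2afx in 16, Cry1 in 18, Efna5 in 19 and Rela in 20. With cells matched on totals, the log2 ratio of Murc was 0.89, the log2 ratio of Hdac10 0.82 and the log2 ratio of Rela 0.47. The percent of genes 2-fold higher was 1.34% and the percent of genes 2-fold lower was 0.73%. These shares depended most on the pseudocount: 5.2% and 3.11% with 1 CPM, 0.0443% and 0.0221% with 50 CPM. With these, Onecut3 went to 2.33 and 0.64, Ptpn13 to 2.93 and 0.31, Ebf2 to -2.76 with 1 CPM, and Zic5 to 1.63 and Sdk2 to 0.68 with 50 CPM. The share lower was 1.53% with cells matched on totals, 1.48% with Ephb1-high at 50 counts and 1.23% with title numbers weighted equally. With no filter on low genes the shares were 0.866% and 0.825% of 19274 genes. With Ephb1-high at 100 CPM and absent cells of 200000 counts, 2.33% were higher. Leaving out a title number gave 1.41% to 1.97% higher and 0.756% to 1.14% lower, with 1.14% lower without title number 1 and also without title number 5. The cell cycle median of -0.35 was 0.059 without thinning, -0.70 with Ephb1-high at 50 counts, 0.20 in RGC-marked cells (Mki67 0.037) and 0.049 without title number 8. For the other changes the cause was not tested. Depth limits genes under 30 CPM, the level of 3 counts in a thinned cell.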
